A study of Homo sapiens with 6 samples.

Results

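The baseline transcriptome of WM-266-4 melanoma cells was described from 3 control arrays, out of 6 arrays in the series. WM-266-4 is an established human melanoma cell line. The cells stably carried the pEXPR-IBA103 plasmid with no insert and had been selected with G418, the drug to which that plasmid gives resistance. They were grown in DMEM with fetal bovine serum, and their arrays were chosen by their labels alone. Each replicate was measured on 1 Illumina Human-6 bead array, a chip that reads biotin-labelled cRNA in 1 colour. The labels number the arrays only as replicates. They do not say whether the replicates were separate cultures or were transfected separately, so the spread between them may be technical. Below, the word culture with a number stands for the replicate of that number. Baseline here therefore means cells with empty vector under selection, and untransfected cells were not analysed here.

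Melanocytes descend from the neural crest and make melanin inside melanosomes, organelles related to lysosomes. The transcription factors SOX10 and MITF drive the pigment enzymes, and MITF binds E-box sequences in their promoters. Melanoma cells keep this program to different degrees and commonly signal through the RAS, RAF, MEK and ERK kinases.

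A gene was read by its brightest probe, and it was called detected on an array when the deposited detection p, which sets the probe against negative control beads, was under 0.01. Of 18665 genes, 10342 (55.4%) were detected on all 3 arrays and 6846 (36.7%) on no array. Another 650 genes were detected on 2 arrays and 827 on 1 array. Signals are given as log2 values after background correction and quantile normalization. The lowest detected probe lay at 5.25, 5.14 and 5.14 on arrays 1, 2 and 3. Genes detected on all 3 arrays had a median of 8.41 and reached 14.75. Probes differ in how well they bind, so the order of genes is an order of probe signals and not of transcript numbers.

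**Figure D1:**
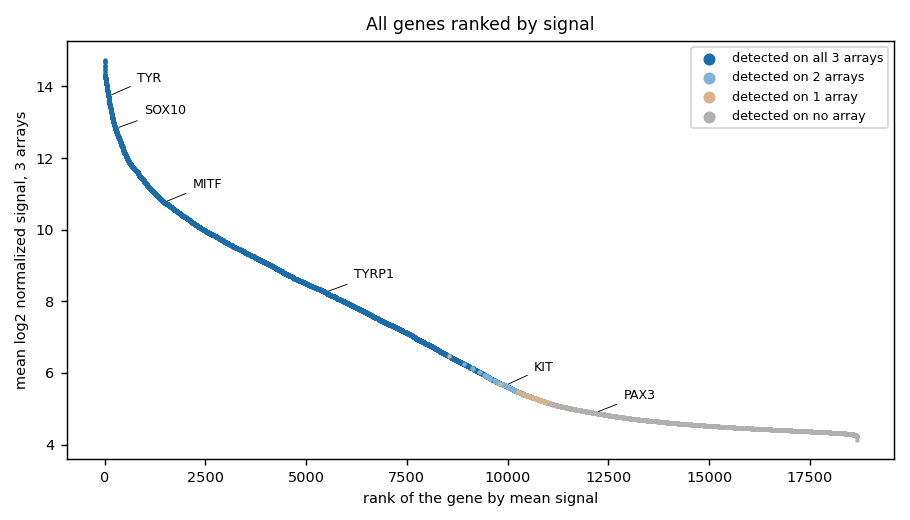
Mean log2 normalized signal of each gene over the 3 control arrays (vertical axis) against its rank (horizontal axis), coloured by the number of arrays on which it was detected. TYR at 13.73 and SOX10 at 12.82 lie near the top, and PAX3 at 4.88 lies among the genes detected on no array.

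The promoters of TYR and TYRP1 are shown because these pigment genes were detected and hold the E-box CATGTG, the core that MITF binds. Sequences are from RefSeq, build GRCh38.p14, and run from 250 bases before to 50 bases after the start of the gene. Capitals mark CATGTG on either strand.
TYR (chr11:89177625-89177924, plus strand): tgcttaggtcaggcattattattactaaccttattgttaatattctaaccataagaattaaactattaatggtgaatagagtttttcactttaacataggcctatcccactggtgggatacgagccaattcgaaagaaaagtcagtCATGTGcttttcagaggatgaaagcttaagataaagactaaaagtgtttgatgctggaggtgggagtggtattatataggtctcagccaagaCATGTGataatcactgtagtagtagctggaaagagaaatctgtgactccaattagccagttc
TYRP1 (chr9:12693135-12693434, plus strand): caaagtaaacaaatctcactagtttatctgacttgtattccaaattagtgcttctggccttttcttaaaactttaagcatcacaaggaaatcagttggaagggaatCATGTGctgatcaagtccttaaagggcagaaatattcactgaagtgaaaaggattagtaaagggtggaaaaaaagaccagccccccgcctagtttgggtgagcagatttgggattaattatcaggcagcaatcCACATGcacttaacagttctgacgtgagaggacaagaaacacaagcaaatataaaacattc
In TYR the matches began 104 and 12 bases before the start, and in TYRP1 144 and 11 bases before it. Of the 6 genes of melanin synthesis and the melanosome matrix that were detected on all 3 arrays and had a promoter entry, 5 held CATGTG (GPNMB, GPR143, SLC24A5, TYR and TYRP1). Of all 14729 promoters, 8.52% did. Over 3 melanosome and melanocytic lists together the motif was in 9 of 27 promoters of detected genes. A match describes the letters and does not show binding.

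The brightest genes included many that encode ribosomal proteins. EEF1A1, an elongation factor of translation, gave 14.73, 14.73 and 14.78 on arrays 1, 2 and 3. SERPINE2, a secreted inhibitor of serine proteases, gave 14.66, 14.72 and 14.72 and ranked second. MGP, a secreted matrix protein that limits calcification, gave 14.26, 14.43 and 14.36. Among the 20 brightest genes, 8 encoded cytosolic ribosomal proteins, and among the 100 brightest, 34 did. The other genes of the first 20 were TPT1, FTL, OAZ1, ACTG1, EEF1G, ATP5F1E, EIF4A1, LGALS1 and NPC2. FTL is the light chain of the iron store ferritin, and LGALS1 is a secreted galectin.

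Most of the melanocytic program was detected, with a few named gaps. Of 10 melanocyte transcription factors, 8 (80.0%) were detected on all 3 arrays, beside 55.4% of all genes. SOX10 gave 13.06, 12.77 and 12.64. MITF gave 10.31, 11.09 and 10.89 on its brightest probe, so culture 1 was the lowest. A second MITF probe was detected near the limit, at 5.50, 6.47 and 6.46, and the last MITF probe was detected on no array. The other detected factors were TFAP2A, LEF1, SNAI2, ZEB2, TFE3 and IRF4, with means between 6.81 and 11.20. PAX3, which acts upstream of MITF in melanocyte development, was detected on no array by any of its 4 probes. TFEB, a relative of MITF that controls lysosomal genes, was detected on no array either.

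Of 9 measured genes of melanin synthesis and the melanosome matrix, 8 (88.9%) were detected on all 3 arrays, beside 55.4% of all genes. TYR, the rate-limiting enzyme of melanin synthesis, gave 13.78, 13.71 and 13.71. PMEL, the fibril protein on which melanin is laid down, gave 13.81, 13.70 and 13.67. Culture 1 was slightly above the others for both genes. TYRP1, a later enzyme of the pathway, gave 7.85, 8.27 and 8.63, with culture 1 the lowest and culture 3 the highest. MLANA averaged 10.99, SLC45A2 12.59, SLC24A5 8.17, GPR143 8.04 and GPNMB 13.67. OCA2, a melanosomal chloride transport protein, was the member not detected on any array.

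**Figure D2:**
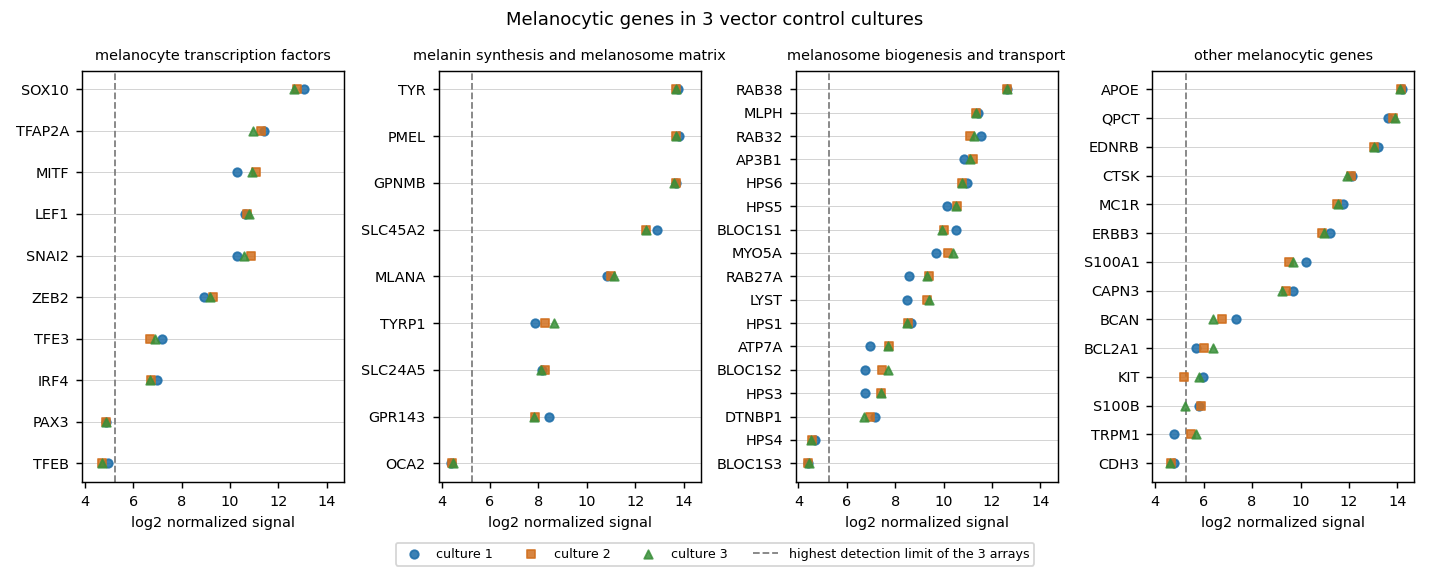
Log2 normalized signal of each culture (symbols) for 4 melanocytic gene lists, with the highest of the 3 detection limits as a dashed line. Most members lie well right of the line, and PAX3, TFEB, OCA2, HPS4, BLOC1S3 and CDH3 lie left of it in all 3 cultures.

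Of 17 genes of melanosome biogenesis and transport, 15 (88.2%) were detected on all 3 arrays, beside 55.4% of all genes. RAB38, which carries pigment enzymes to melanosomes, gave 12.61, 12.63 and 12.64. The chain that links melanosomes to actin was detected in full, with means of 9.10 for RAB27A, 11.36 for MLPH and 10.07 for MYO5A. RAB32, HPS1, HPS3, HPS5, HPS6, BLOC1S1, BLOC1S2, DTNBP1, AP3B1, LYST and ATP7A were also detected, with means between 6.94 and 11.30. HPS4 and BLOC1S3 were detected on no array. HPS4 and HPS1 proteins form 1 complex, and HPS1 averaged 8.56.

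Of 14 other melanocytic genes, 12 (85.7%) were detected on all 3 arrays, beside 55.4% of all genes. MC1R, the receptor for melanocyte-stimulating hormone, gave 11.74, 11.52 and 11.56. EDNRB, the endothelin receptor of the melanocyte lineage, gave 13.22, 13.05 and 13.02. POMC, EDN1 and EDN3, which encode the ligands of these receptors, were detected on no array. APOE averaged 14.16, QPCT 13.78, CTSK 12.05, ERBB3 11.02, S100A1 9.81, CAPN3 9.45, BCAN 6.82 and BCL2A1 6.02. S100B, a diagnostic melanoma marker, lay near the limit at 5.80, 5.90 and 5.21. KIT, the receptor for stem cell factor, lay there too, at 5.96, 5.16 and 5.82. TRPM1 was detected on 2 arrays and CDH3 on none.

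Genes of the neural crest and of the dedifferentiated melanoma state were mixed. Of 16 measured, 11 (68.8%) were detected on all 3 arrays and 3 (18.8%) on none, beside 55.4% and 36.7% of all genes. CD44, an adhesion receptor for hyaluronan, averaged 13.61, the matrix protein gene TNC 11.72, NES 10.45, AXL 9.78, SOX9 9.73 and JUN 9.34. EGFR was detected on no array by any of its 4 probes, and WNT5A and NRG1 were detected on none. NGFR, the nerve growth factor receptor, gave 5.68, 4.89 and 5.30 and was detected on 2 arrays. Among factors of epithelial to mesenchymal transition, SNAI2 gave 10.29, 10.86 and 10.56, and ZEB2, PRRX1 and TWIST1 were detected as well. SNAI1, SNAI3, ZEB1 and TCF4 were detected on no array.

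Markers of other cell types differed from list to list, and are read beside the 55.4% of all genes that were detected on all 3 arrays. Of 13 epithelial markers, 3 were detected on all 3 arrays, and the highest was KRT18 at 6.80. KRT5, KRT14, KRT8 and KRT19 were detected on none. Of 14 T and NK cell markers, only NCAM1 was detected on all 3 arrays, with a mean of 5.39, and CD3D, CD3E and CD3G were detected on none. PTPRC, the pan-leukocyte antigen CD45, was detected on no array. Myeloid markers gave 6 of 11 (54.5%), a share near that of all genes. CD14, a coreceptor for bacterial lipopolysaccharide, gave 9.83, 9.23 and 9.24 in cultures 1, 2 and 3. The lysosomal protein gene CD68 averaged 8.38 and the adaptor gene TYROBP 7.81, while CD163, CSF1R, FCGR1A and MPO were detected on no array. Endothelial markers gave 5 of 9 (55.6%), again near the share of all genes. VWF averaged 7.51, EGFL7 6.92, PECAM1 6.22, KDR 5.37 and TEK 5.36, and CDH5 and CLDN5 were detected on no array. B cell markers gave 3 of 6, with CD22 at 7.36, CD79B at 5.98 and CD79A at 5.45. Markers of neurons and glia gave 4 of 9. MBP, a myelin protein, gave 10.46, 10.64 and 10.64, and MAP2, a microtubule protein of neurons, averaged 9.11. GFAP, NEFL and AQP4 were detected on no array. Fibroblast markers gave 4 of 10, with COL1A2 at 12.44 and FAP, while COL1A1, COL3A1, DCN and THY1 were detected on no array. Liver and adipose markers gave 2 of 10, and of 9 measured muscle markers none was detected on all 3 arrays. The source of the signals from other lineages was not tested.

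Some receptors and factors known from other lineages were detected, and a few of them gave strong signals. CCR6, a chemokine receptor of lymphocytes, gave 12.37, 12.92 and 13.12 on 1 of its 3 probes, while the other 2 were detected on no array. LAIR1, an inhibitory collagen receptor of leukocytes, gave 14.04, 13.95 and 13.99 and was named after its values were seen. DLL3, an inhibitory Notch ligand, averaged 12.75, and NEUROG2, a transcription factor of neuron formation, gave 10.56, 10.56 and 10.54. The sensory neuron factor POU4F1 averaged 8.34, EBF1 of the B lineage 8.56 and RUNX3 9.59. The median of genes detected on all 3 arrays was 8.41. Of measured transcription factors, 4 of 13 for blood lineages and 3 of 10 for neurons were detected on all 3 arrays. For muscle and heart it was 3 of 11 (MEF2C at 7.88, NKX2-5 at 6.05 and GATA4 at 5.53). For endoderm and gut it was 1 of 9 (FOXA3 at 6.05), beside 55.4% of all genes. In these lists NEUROG1, NEUROG3, PAX5, GATA1, GATA3, SPI1, MYOD1 and CDX2 were among those detected on no array.

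At the beta-globin locus on chromosome 11, embryonic and fetal genes were detected and adult genes were not. These genes were chosen after their values were seen. HBE1, the embryonic globin, gave 11.09, 10.83 and 10.59. HBG2 gave 9.31, 9.09 and 8.64, and HBG1 gave 9.02, 8.83 and 8.51, but the 2 fetal genes are nearly identical and their signals cannot be separated with certainty. The order of cultures was the same for all 3 genes, with culture 1 the highest. HBB, HBD and the pseudogene HBBP1 were detected on no array. The olfactory receptor gene OR51B4, the next measured gene beyond HBE1, averaged 7.22, and OR52A5, on the other side of the locus, 7.20. Of the alpha-globin genes, HBA1 and HBA2 were detected on no array, and so was the erythroid factor KLF1.

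HOX genes, which give cells their position along the body axis, were mostly detected. Of 29 measured, 25 (86.2%) were detected on all 3 arrays, beside 55.4% of all genes. The median signal of the detected HOX genes was 7.135, below the 8.406 of all genes detected on all 3 arrays. In the HOXB cluster it was 9 of 10, in HOXC 7 of 9 and in HOXD 8 of 9, and 1 HOXA gene was measured. HOXB7 gave 11.71, 11.42 and 11.44, and HOXC6 10.59, 10.50 and 10.65. The posterior genes HOXD10, HOXD11, HOXD12 and HOXD13 were detected, with means between 6.50 and 7.97. HOXB9 and HOXC12 were detected on no array, and HOXC5 and HOXD9 on 1 array.

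**Figure D3:**
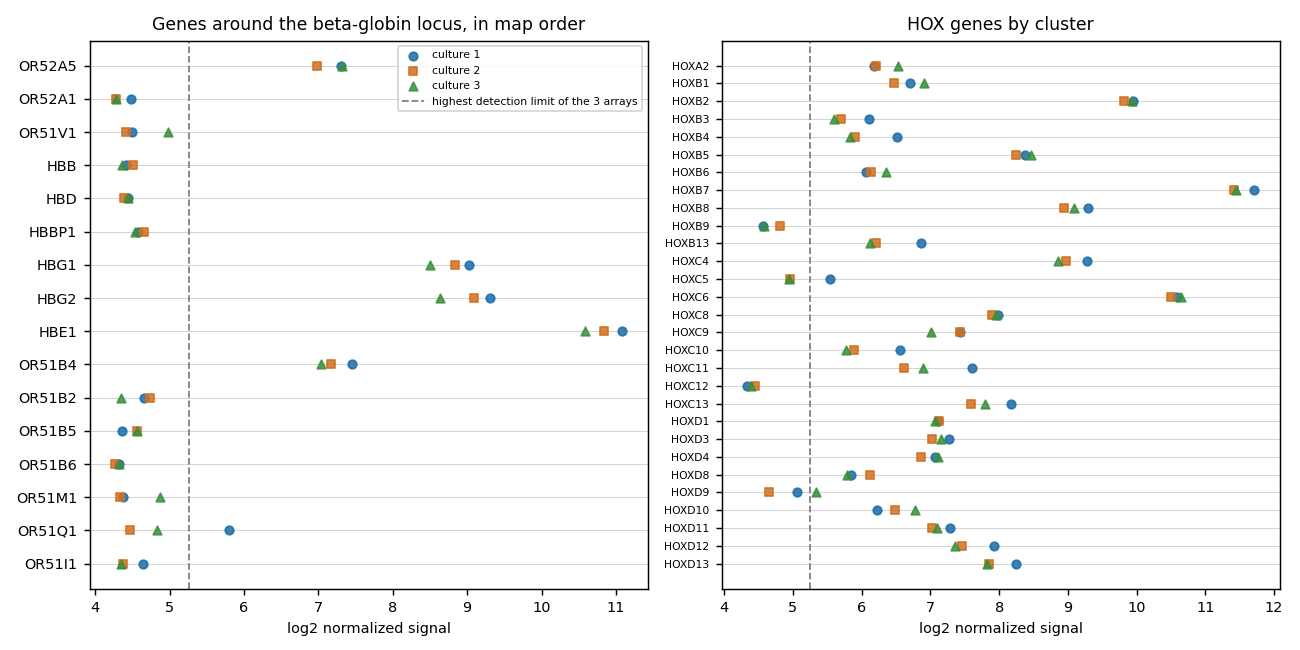
Log2 normalized signal of each culture for measured genes around the beta-globin locus in map order (left) and for HOX genes by cluster (right), with the highest detection limit as a dashed line. HBG1, HBG2 and HBE1 lie right of the line between the undetected HBBP1 and the detected OR51B4, and 25 of 29 HOX genes were detected on all 3 arrays.

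Of 54 measured receptor tyrosine kinases, 27 were detected on all 3 arrays and 19 on none. ERBB3 averaged 11.02, RYK 10.37, ERBB2 10.02, AXL 9.78, EPHB4 9.54 and TYRO3 9.45. EGFR, PDGFRB, CSF1R, FLT1, FLT3 and FGFR1 were among those detected on no array. MET, the hepatocyte growth factor receptor, gave 4.77, 4.80 and 6.04 and was detected in culture 3 alone. MUSK, known from the neuromuscular junction, gave 8.70, 8.42 and 8.14.

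Receptors for amines were mostly not detected, with 8 of 33 (24.2%) on all 3 arrays and 19 (57.6%) on none. Over all genes the shares were 55.4% and 36.7%. The serotonin receptor HTR2A gave 9.16, 9.34 and 9.39, and HTR2B averaged 8.64. Muscarinic acetylcholine receptors CHRM1, CHRM2, CHRM3, CHRM4 and CHRM5 were detected on no array. Of 48 receptors for peptides and lipids, 15 (31.2%) were detected on all 3 arrays. F2R, the thrombin receptor, gave 13.65, 13.66 and 13.70, and LPAR1, a receptor for lysophosphatidic acid, averaged 10.17. Among melanocortin receptors MC1R was detected, and MC2R, MC3R, MC4R and MC5R were not.

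Interferon receptors were present with few of their ligands. IFNGR2 averaged 12.46, IFNAR2 9.25, IFNGR1 8.86 and IFNAR1 8.47. Of 18 interferon genes, 17 were detected on no array, and IFNA8 averaged 7.96. Of 29 TNF receptors 12 (41.4%) were detected on all 3 arrays, among them TNFRSF21 at 12.74, TNFRSF19 at 12.43 and TNFRSF14 at 12.39. Of 25 integrin chains 18 (72.0%) were detected on all 3 arrays, led by ITGB5 at 13.35 and ITGB1 at 12.90. Nuclear receptors gave 19 of 40 (47.5%), beside 55.4% of all genes. RXRA averaged 9.70 and RARA 9.63, while ESR1, PGR and VDR were detected on no array.

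Of 16 measured genes of the RAS to ERK cascade, 15 (93.8%) were detected on all 3 arrays, beside 55.4% of all genes. SHC1 averaged 11.64 and MAP2K2 11.03. Of 16 genes used as output of that cascade, 15 were detected on all 3 arrays and none was missing from all arrays. CCND1, the cyclin of the G1 phase, gave 13.68, 13.93 and 13.87. ETV5, a transcription factor, gave 12.80, 12.66 and 12.42, and SPRY4, a feedback inhibitor, 12.71, 12.60 and 12.46. Of 24 Wnt receptors and beta-catenin pathway genes 20 were detected on all 3 arrays, against 4 of 19 Wnt ligands (WNT2B, WNT5B, WNT3 and WNT16). Fibroblast growth factors gave 5 of 22, led by FGF13 at 8.68.

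CDKN2A, the cell cycle inhibitor gene at chromosome band 9p21, was detected on no array by any of its 3 probes. Its neighbour MTAP gave 8.36, 8.87 and 8.91, and CDKN2B gave 6.70, 6.60 and 6.72 on the brightest of its 3 probes. TERT and TERC, the enzyme and RNA of telomerase, were detected on no array, while the accessory genes DKC1, NOP10, NHP2, GAR1 and WRAP53 were. TERC was read by 1 probe, and an undetected probe does not show that an RNA was absent. CDKN1A, the p21 inhibitor, averaged 13.22.

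Of 33 measured cancer-testis antigens, genes active mainly in testis and tumours, 14 were detected on all 3 arrays and 14 on none. Each share was 42.4%, beside 55.4% and 36.7% of all genes. PRAME gave 12.12, 11.92 and 11.77, MAGEA10 averaged 10.83 and MAGEA6 10.03. MAGE-A genes are close copies, so their probes may share signal. PAGE5, the gene for CT16, was near the limit in these vector cells, at 5.40, 5.44 and 5.70 on its brightest probe. A second PAGE5 probe gave 5.36, 5.62 and 5.37, and the last was detected on no array.

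Gene families with tissue-restricted use were largely undetected, and housekeeping complexes were complete or nearly so. All 77 mitochondrial ribosomal proteins, 31 aminoacyl-tRNA synthetases and 8 chaperonin subunits were detected on all 3 arrays. Of 367 olfactory receptors 12 were (3.27%), of 24 bitter taste receptors 1, and of 17 GABA-A receptor subunits, 14 killer cell immunoglobulin-like receptors and 10 pregnancy-specific glycoproteins 0. The share over all genes was 55.4%. Leukocyte immunoglobulin-like receptors gave 2 of 10, and these were bright, with LILRB3 at 11.91 and LILRB1 at 10.66.

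**Figure D4:**
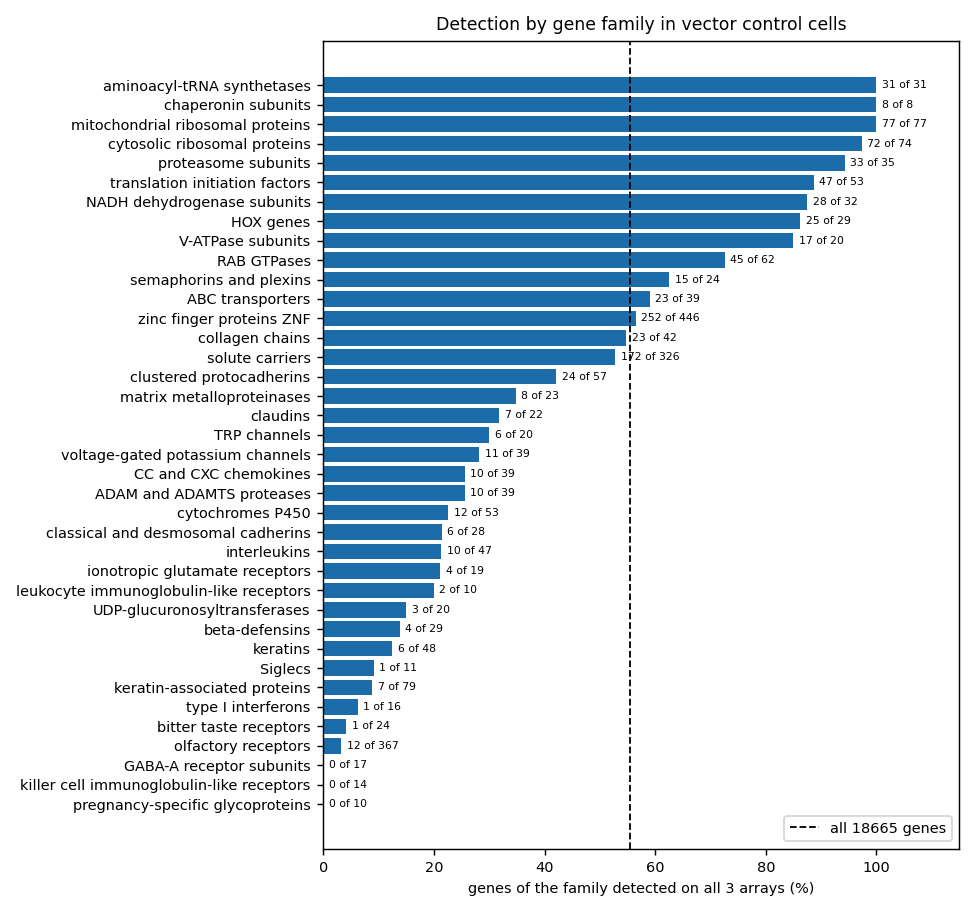
Share of measured genes in each family that were detected on all 3 control arrays (horizontal bars, in percent, with counts), against the share over all genes (dashed line, 55.4%). Mitochondrial ribosomal proteins reach 77 of 77, and olfactory receptors 12 of 367.

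Cytochrome oxidase isoforms divided by tissue form, and glycolytic isozymes did so only in part. Of 12 cytochrome oxidase isoforms 6 were detected on all 3 arrays (COX4I1, COX7A2, COX8A, COX6B1, COX6A1 and COX7B), with means between 11.09 and 13.96. Over all genes 55.4% were detected on all 3 arrays. The heart, muscle, lung or testis forms COX4I2, COX6A2, COX6B2, COX7A1, COX7B2 and COX8C were detected on no array. Of 28 measured glycolytic isozymes and glucose transporters, 22 were detected on all 3 arrays (78.6%). HK1, PGK1 and LDHA were detected, and HK3, PGK2 and LDHC were not. GAPDHS, the sperm form of glyceraldehyde phosphate dehydrogenase, was detected, with a mean of 9.14. Other tissue forms detected on all 3 arrays were ENO2 at 9.35, ENO3 at 7.71, ALDOC at 6.21 and PGAM2 near the limit at 5.31.

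Some genes of the same detection class lay side by side. Along the RefSeq gene order, 23 runs of at least 10 measured genes in a row were detected on no array, and 65 such runs were detected on all 3 arrays. Over all genes 36.7% were detected on no array and 55.4% on all 3 arrays. How many runs these shares alone would give was not computed. The longest undetected runs held 23 genes each, a stretch of keratin and keratin-associated genes on chromosome 17 that ended at KRT19 and a stretch with OR6C olfactory receptors on chromosome 12. The longest detected runs held 18 genes, and 1 of them lay on chromosome 12 as well and held PMEL, CDK2 and ERBB3. Promoters differed in CG pairs between these classes. The median was 26 CG pairs per promoter for genes detected on all 3 arrays (n = 8558 promoters) and 9 for genes detected on none (n = 5043).

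The 3 cultures were not equally alike. Across the 10342 detected genes, Pearson's r was 0.99 between cultures 2 and 3, 0.97 between 1 and 2 and 0.97 between 1 and 3, where genes are not independent replicates. The median SD was 0.23 over the 3 cultures and 0.0788 without culture 1. Of 757 genes with an SD over 0.5, culture 1 was the farthest from the median in 701. Of 11819 genes detected on at least 1 array, 160 (1.35%) were at least 1 log2 unit lower in culture 1 than in both others and 51 (0.432%) were higher. Under 5 other normalizations the counts were 46 to 509 lower and 5 to 47 higher. EIF3E, a translation initiation factor, gave 12.46, 13.49 and 13.48, and USF2, a transcription factor, gave 11.50, 10.40 and 10.15. Both genes were picked with their values in view. The median promoter GC content was 71.5% for the genes higher in culture 1 (n = 44 promoters) and 63% for those lower (n = 139). For genes detected on all 3 arrays it was 65.0%, close to that of the lower set. The part of GC content in the difference between cultures was not tested.

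Culture 3 differed in a smaller set of another kind. In it 25 genes (0.212%) were at least 1 log2 unit higher than in both other cultures, and 0 were lower. Most of the 25 were detected in culture 3 alone. Some of these lay near its limit of 5.14, as VASH2 at 5.36 and GALR1 at 5.50. With no background correction 12 genes were higher. The 25 genes included chemokine genes and feedback inhibitors of NF-kB, the factor that switches on inflammatory genes. CXCL8, the neutrophil chemokine interleukin 8, gave 9.46, 10.53 and 13.75 and had the largest SD among genes detected on all 3 arrays, 2.23. Its second probe gave 8.28, 9.31 and 12.92. CXCL1, a related chemokine, gave 6.04, 6.06 and 9.12. CCL2, which attracts monocytes, was detected in culture 3 alone, at 9.16. NFKBIA, the inhibitor that holds NF-kB in the cytoplasm, gave 10.61, 10.46 and 12.05. NFKBIZ gave 7.66, 8.50 and 9.96, and TNFAIP3, an inhibitor of signaling to NF-kB, 6.16, 6.16 and 7.81. Culture 3 was the highest for each of them. SHISA2 and IL32 were also among the 10 genes of largest SD. EBI3, GNA15 and UBD were among the 10 brightest genes detected on exactly 1 array, and in each it was culture 3.

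A list of 30 NF-kB responsive genes was added after these values were seen. Of its 26 members detected on at least 1 array, 20 (76.9%) were highest in culture 3, and over all genes detected on at least 1 array 29.2% were. The others were RELB, NFKB2, BCL3, CCL5, TNIP1 and TRAF1. Of the 25 genes higher in culture 3, 12 were on the list. CCL2, CXCL10, TNF, LCN2, EBI3 and UBD counted as detected through culture 3 alone. The list was chosen with these values in view, so its share is a description and not a test. IL6, CXCL2 and CXCL3 were detected on no array.

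The promoters of 4 of these genes are shown because they hold the kappaB consensus of 10 letters that NF-kB binds. They come from RefSeq, build GRCh38.p14, over the same window, with matches on either strand in capitals.
NFKBIA (chr14:35404700-35404999, minus strand): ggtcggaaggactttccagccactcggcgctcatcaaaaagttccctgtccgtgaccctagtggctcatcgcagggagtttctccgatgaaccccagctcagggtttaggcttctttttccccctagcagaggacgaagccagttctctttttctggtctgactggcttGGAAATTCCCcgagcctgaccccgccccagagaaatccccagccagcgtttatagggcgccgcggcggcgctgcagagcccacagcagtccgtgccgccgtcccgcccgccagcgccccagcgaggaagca
NFKBIZ (chr3:101827740-101828039, plus strand): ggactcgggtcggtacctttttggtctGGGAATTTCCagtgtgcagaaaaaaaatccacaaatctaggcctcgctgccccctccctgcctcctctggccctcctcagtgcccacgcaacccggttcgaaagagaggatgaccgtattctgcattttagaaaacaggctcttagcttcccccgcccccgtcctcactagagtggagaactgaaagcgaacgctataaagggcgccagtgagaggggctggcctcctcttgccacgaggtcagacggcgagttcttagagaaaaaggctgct
CXCL1 (chr4:73869143-73869442, plus strand): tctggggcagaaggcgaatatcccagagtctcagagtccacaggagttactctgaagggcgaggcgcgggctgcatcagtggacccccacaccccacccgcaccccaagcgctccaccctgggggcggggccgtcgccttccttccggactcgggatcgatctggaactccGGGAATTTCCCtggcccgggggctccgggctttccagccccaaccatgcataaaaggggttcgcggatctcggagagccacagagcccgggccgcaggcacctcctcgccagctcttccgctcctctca
TNFAIP3 (chr6:137867009-137867308, plus strand): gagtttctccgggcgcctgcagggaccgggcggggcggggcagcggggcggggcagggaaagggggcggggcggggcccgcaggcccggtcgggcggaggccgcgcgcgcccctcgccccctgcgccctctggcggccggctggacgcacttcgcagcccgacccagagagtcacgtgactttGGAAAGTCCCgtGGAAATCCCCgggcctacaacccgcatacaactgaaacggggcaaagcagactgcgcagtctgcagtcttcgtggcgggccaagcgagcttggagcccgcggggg
CXCL1 held overlapping matches on both strands. Of the 23 genes with a promoter entry among the 25 higher in culture 3, 10 held the consensus, and over all 14729 promoters 12.1% did. The set was chosen by its values in these cultures, so the count is a description.

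**Figure D5:**
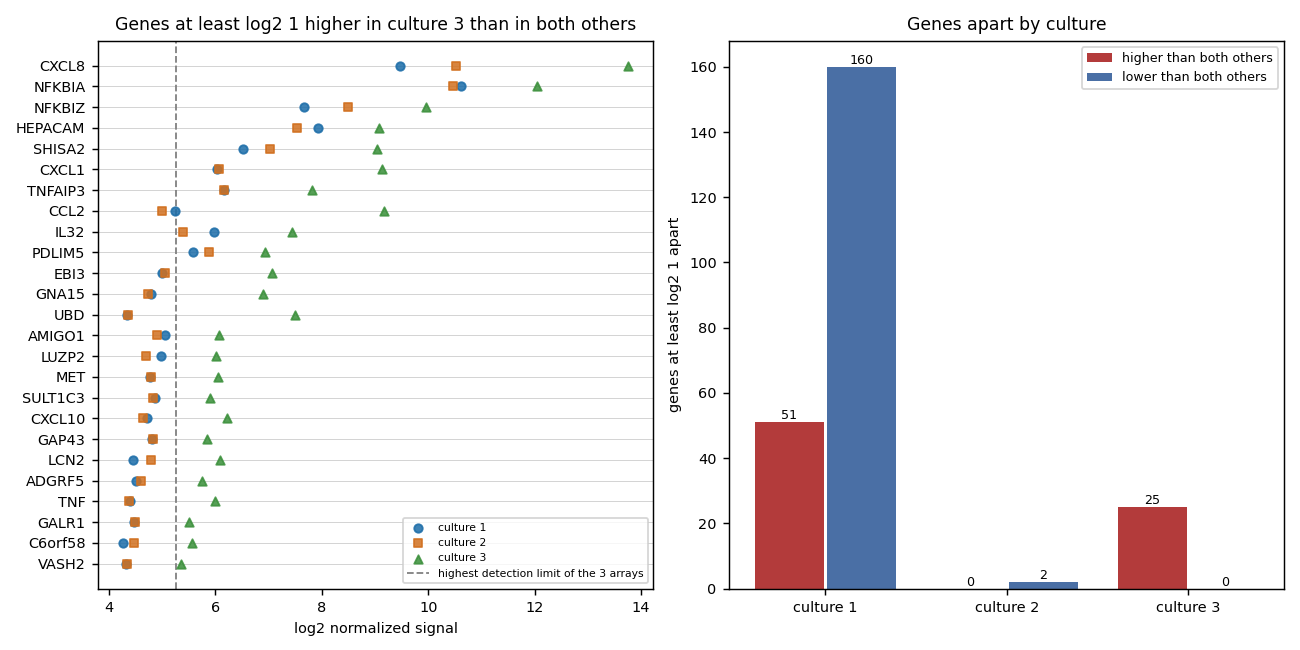
Left, log2 normalized signal in each culture for the 25 genes at least 1 log2 unit higher in culture 3 than in both others, with the highest detection limit as a dashed line. Right, number of genes at least 1 log2 unit apart from both other cultures, which was 51 higher and 160 lower in culture 1 and 25 higher in culture 3.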

How the data were processed

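The 3 vector control arrays were taken by their labels, and the 3 CT16 arrays entered only an alternative normalization. The authors hybridized amplified, biotin-labelled cRNA and scanned the chips with BeadScan. They deposited probe intensities that were neither normalized nor background-subtracted, in 48804 rows. An identifier came up again and its rows were averaged. The deposited table also gives a detection p-value for each probe. The genome build of the probe design was not given in the sources used here. Quantile normalized intensities, also deposited by the authors, served as an alternative.

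Raw medians were 63.6 to 65.5, and 35.1% to 37.0% of 48803 probes were detected per array. Background was corrected with nec in limma 3.58.1 (R 4.3.3), an offset of 16 was added and the 3 arrays were quantile normalized. Of the probes, 27578 had 1 gene symbol in the platform annotation and 13 several, and 21212 were not listed. Identifiers of 27541 probes were found in RefSeq. A gene was read by its probe of highest mean signal, and 5913 genes had more than 1 probe. The scripts were tested on simulated data. No test between groups was made, and the number of arrays limits the precision.

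Members and lists were chosen with earlier results of these data known. Named genes were the 20 brightest, all members of 4 melanocytic lists, up to 6 detected and up to 6 undetected members of other lists, the 10 of largest SD and the 10 brightest detected on exactly 1 array. Families were given as counts with up to 4 members. Genes outside this rule were named after their values were seen. X-inactivation and Y-linked genes were not named.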

Additional observations from a re-analysis of the deposited data

How the results depend on the processing

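The count of genes detected on all 3 arrays was between 10226 and 11009 under detection thresholds of 0.001 and 0.05, and the count detected on none between 7033 and 5653. Without each array in turn these counts were 10444 to 10749 and 7105 to 7150. Of the 100 brightest genes, 100 were shared under each of the 5 other normalizations, 74 when the probes of each gene were averaged, and 97 to 99 without each array. The median SD was 0.17 to 0.23 under the other normalizations, offset and filter. Without each array it was 0.0788 to 0.265, and the lowest value, 0.0788, was that without culture 1.

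Counts of genes apart on 1 array depended on the normalization and the gap, alternatives chosen after seeing the data. Higher in culture 3 were 12 genes with no background correction and 12 with the authors' values, 113 at a 1.5-fold gap and 7 at a 4-fold gap. Higher in culture 1 were 6 with no background correction, 12 with median scaling, 26 with cyclic loess and 5 with the authors' values, 700 at a 1.5-fold gap and 0 at a 4-fold gap. Lower in culture 1 were 46, 509, 285 and 51 under the same normalizations, 1299 at a 1.5-fold gap and 0 at a 4-fold gap. The cause was not tested.

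No paired analysis was possible because only the control arrays were described and no result comes from a test. Of 53 gene lists, 50 kept their count of detected members within 1.5 times at a threshold of 0.05 and 3 did not. A probe that was not detected gives no level, and 1805 genes detected on all 3 arrays had another probe detected on none.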
